A study of Schizosaccharomyces pombe with 24 samples.

Results

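Loss of both Mst2 and Elp3, the catalytic subunits of a pair of histone acetyltransferase complexes, was compared with wild type in fission yeast, Schizosaccharomyces pombe. The comparison held 6 of the 24 expression arrays of the series, 3 labelled mst2elp3 and 3 labelled wt, chosen by label alone, and 4981 features, 1 probe set for each gene or unnamed transcript. The double mutant was h+ with KanMX6 in place of elp3 and ura4+ in place of mst2, in a leucine, uracil and adenine auxotroph background (leu1, ura4 and ade6 alleles). The wild type was h+ with leu1, ura4 and ade6 alleles and can1-1. Each single mutant, Δmst2 with the ura4+ marker and Δelp3 with KanMX6, was represented by 3 arrays and was used beside the double mutant. Per the labels, all were asynchronous cultures grown at 30 °C, and the methods describe independent isolates.

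Labelling and date went with the genotype. Per the labels, the wild-type and Δmst2 arrays were made from 10 µg of total RNA by Affymetrix One-Cycle labelling and carry the earlier experiment date. The double mutant and Δelp3 arrays, with all others that lacked elp3, were made from 1 µg with MessageAmp II-Biotin Enhanced Single Round labelling and carry the later date. In Δmst2 Δelp3 against wild type, the double loss, the date and the labelling therefore cannot be told apart. Δelp3 shares both with the double mutant, and an additive effect of date or labelling cancels in the interaction of the deletions given below.

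Mst2 is a MYST-family enzyme that acetylates lysine 14 of histone H3, together with Gcn5, and is known for its effect on silencing at telomeres. Elp3 is the catalytic subunit of Elongator, first described in budding yeast as a complex that travels with RNA polymerase II, and known for modifying uridines at the wobble position of tRNA anticodons. Loss of Elongator in fission yeast is known to alter the translation of messages rich in certain lysine codons.

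The deleted genes read as labelled. mst2 was at 9.89, 8.73 and 10.13 (log2 signal) in wild type and at 5.24, 5.20 and 5.20 in the double mutant. elp3 was at 11.75, 12.02 and 11.47 in wild type and at 6.23, 6.05 and 6.61 in the double mutant. Neither pair of groups overlapped, and by limma's moderated test with Benjamini-Hochberg adjustment mst2 fell by 4.37 ± 1.08 (log2, SE, n = 3 and 3, adjusted p = 0.00872) and elp3 fell by 5.45 ± 0.21 (adjusted p = 6.8e-12). The gene of the marker, ura4, was at 13.54, 13.40 and 13.51 in the double mutant and at 7.40, 12.85 and 7.45 in wild type. Its difference is a product of strain construction, and the second wild-type array stood with the marked strains. gcn5, which neither strain lacks, differed by 0.12 (adjusted p = 0.956), and act1, the actin gene, by -0.07 (adjusted p = 0.481).

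Among all arrays, 3 libraries stood apart. The library labelled Δmst2 replicate 2 had mst2 at 10.01 and gcn5 at 5.43. The library labelled Δgcn5 replicate 2 had mst2 at 5.21 and gcn5 at 10.93. Wild-type replicate 2 had ura4 high, as above, and mst2 lower than in the other wild-type arrays. Some of the results named below are given with and without them. Array medians lay between 10.99 and 11.09 in all 24 arrays, and arrays within a group correlated over features with r of 0.986 to 0.993 in the double mutant and 0.965 to 0.985 in wild type.

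Against wild type, loss of Mst2 and Elp3 went with higher levels of a small set of genes, most of them low in wild type, and with lower levels of galactose genes, 3 hexose transporter genes and a siderophore-iron transporter gene. At a fold of 3.25 or more with an adjusted p under 0.05, 29 features (0.582% of 4981) were higher and 25 (0.502%) lower. Of these, 16 and 10 had a gene symbol. By the adjusted p alone, 631 (12.7%) rose and 458 (9.19%) fell, and 430 of these 1089 moved by less than 1.5-fold and 476 by 1.5- to 2-fold. The 29 features that were higher had a median wild-type level of 7.25, against 11.02 over all features, and 22 of the 29 had a mean level under 10.01, the lower quartile of all features. The 25 that were lower had a median wild-type level of 10.72. The 3 arrays of one group lay wholly above those of the other in 1199 features (24.1%) that were higher in the double mutant and in 983 (19.7%) that were lower, which is the background for the genes said below not to overlap. In bulk RNA, fewer cells that express a gene and less RNA per cell cannot be told apart.

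**Figure D1:**
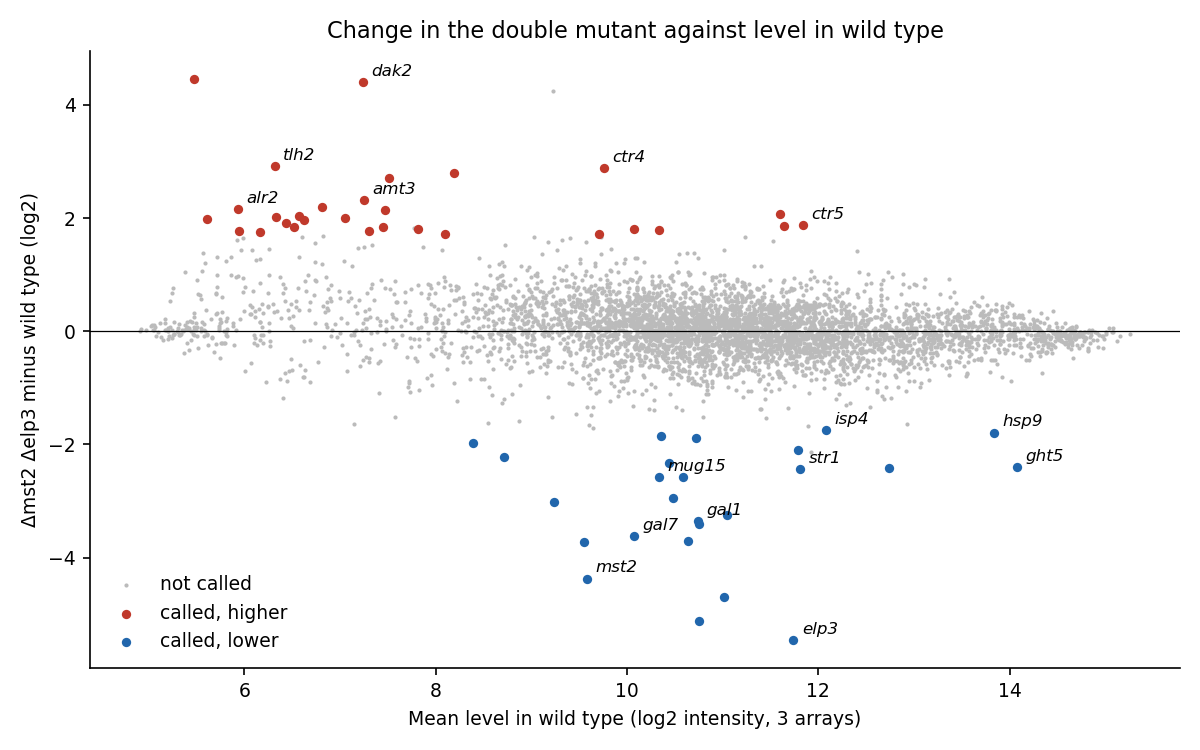
Change in Δmst2 Δelp3 against wild type (log2, vertical axis) by mean level in wild type (log2 signal, horizontal axis) for each of the 4981 features, with the 54 that passed both the fold of 3.25 and the adjusted p in colour. The 29 higher features crowd at the low end of the level axis, and the 25 lower ones spread over the middle and high levels.

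Among named genes the highest rise was in dak2, for a dihydroxyacetone kinase of glycerol breakdown. It was at 7.46, 7.25 and 7.00 in wild type and at 11.29, 11.86 and 11.77 in the double mutant, with no overlap, a rise of 4.40 ± 0.31 (log2), or 21.2-fold (adjusted p = 5.96e-08). Of the 7 measured genes of glycerol and dihydroxyacetone use, dak2 and gpd2, for glycerol-3-phosphate dehydrogenase (0.32), rose and dak1, for the other dihydroxyacetone kinase (-0.64), fell. In this list 28.6% rose and 14.3% fell, against 12.7% and 9.19% of all features. The list's median was -0.24, against 0.02 over all features. dak1 passed in 1 and gpd2 in 2 of the 6 fits that left out an array, and dak2 in all 6. dak2 was also at 12.26 on average in the mst1 temperature-sensitive arrays, which have the date and labelling of the wild type.

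The genes of the copper transporter rose. ctr4, for one subunit of the high-affinity copper transporter of the plasma membrane, was at 10.09, 10.03 and 9.17 in wild type and at 12.69, 12.68 and 12.55 in the double mutant, a rise of 2.88 ± 0.26 (7.35-fold, adjusted p = 1.53e-06). Its partner subunit gene, ctr5, was at 12.04, 12.06 and 11.41 in wild type and at 13.65, 13.63 and 13.84 in the double mutant, a rise of 1.87 ± 0.21 (adjusted p = 1.04e-05). For both genes the double mutant arrays were above each of the other 21 arrays, but Δelp3 was high as well. Its means were 11.98 for ctr4 and 13.35 for ctr5. The double mutant differed from Δelp3 by 0.66 (adjusted p = 0.624) and 0.36 (adjusted p = 0.939), which did not pass. Of 12 measured genes of copper transport and regulation, 4 rose and 1 fell (33.3% rose, against 12.7% of all features), with a median of 0.24. The others that rose were cuf2, for a meiotic copper-dependent regulator (1.44, adjusted p = 0.000184), and cao1, for a copper amine oxidase (1.16, adjusted p = 0.001). The one that fell was zym1, for a metallothionein that binds zinc (-1.48, adjusted p = 0.0438), a call kept in 1 of the 6 fits that left out an array. mfc1, for a copper transporter of the forespore membrane, was not in that list and rose by 1.97 ± 0.24 (adjusted p = 3.57e-05).

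Few genes of the other metals passed. Of 20 iron uptake genes none rose and 2 fell (10%, against 9.19% of all features, and 1 to 4 with 1 array left out), and the median was -0.29. They were str1, for a siderophore-iron transporter, and php4, for the iron-responsive subunit of the CCAAT-binding complex (-0.74, adjusted p = 0.0138, kept in 4 of 6 fits without an array). str1 was at 11.86, 10.96 and 12.62 in wild type and at 9.88, 8.96 and 9.27 in the double mutant. It fell by 2.44 ± 0.46 (adjusted p = 0.00143). Of 8 zinc homeostasis genes, zrt1, for a zinc transporter (-0.80, adjusted p = 0.00413), and zym1 fell (25%, against 9.19% of all features) and none rose.

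Nitrogen genes were split. amt3, for an ammonium transporter, was at 6.94, 7.45 and 7.37 in wild type and at 9.82, 9.41 and 9.49 in the double mutant, a rise of 2.32 ± 0.24 (adjusted p = 5.69e-06). cat1, for a cationic amino acid transporter (0.81, adjusted p = 0.00969), and amt2, for another ammonium transporter (0.49, adjusted p = 0.0328), rose less. isp4, for an oligopeptide transporter, was at 12.10, 11.50 and 12.64 in wild type and at 10.20, 10.42 and 10.40 in the double mutant. It fell by 1.74 ± 0.23 (adjusted p = 6.41e-05). put4, for a proline permease (-1.09, adjusted p = 0.0451), and per1, for an amino acid permease (-0.79, adjusted p = 0.0157), fell as well. Without wild-type replicate 3 put4 was at -0.51 (adjusted p = 0.242), and it passed in 2 of the 6 fits without an array, as did amt2. Over the 19 measured genes of this list 3 rose and 3 fell, with a median of -0.11. That was 15.8% each way, against 12.7% and 9.19% of all features. With 1 array left out each count was between 1 and 3. gdh2, for a glutamate dehydrogenase, rose by 1.86 ± 0.30 (adjusted p = 0.000432). alr2, for an alanine racemase, was at 5.89, 5.72 and 6.17 in wild type and at 8.02, 8.13 and 8.10 in the double mutant, a rise of 2.16 ± 0.19 (adjusted p = 1.44e-06).

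Meiosis and sporulation genes formed the list with the most members raised. Of 80 measured, 30 rose and 2 fell (37.5% rose, against 12.7% of all features), 69 had a positive difference, and the median was 0.36. spo6, for the regulatory subunit of a meiotic protein kinase, was at 6.76, 6.43 and 6.51 in wild type and at 8.29, 8.76 and 8.75 in the double mutant, a rise of 2.03 ± 0.21 (adjusted p = 7.19e-06). mde2, needed for meiotic DNA breaks, was at 7.29, 6.96 and 6.90 in wild type and at 8.75, 9.29 and 9.12 in the double mutant, a rise of 2.00 ± 0.32 (adjusted p = 0.00039). For these and the other called members of the list, the double mutant levels stayed below the median of all features. Further members that rose were mug97 (1.84), spn5, for a meiotic septin (1.62), mei4, for the forkhead factor of middle meiosis (1.47), and rec24, for a recombination protein (1.32). mug15 fell, by 2.58 ± 0.74 (adjusted p = 0.0196, and 0.0816 without double mutant replicate 2). With 1 array left out 22 to 27 rose, and without wild-type replicate 2, 23.

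**Figure D2:**
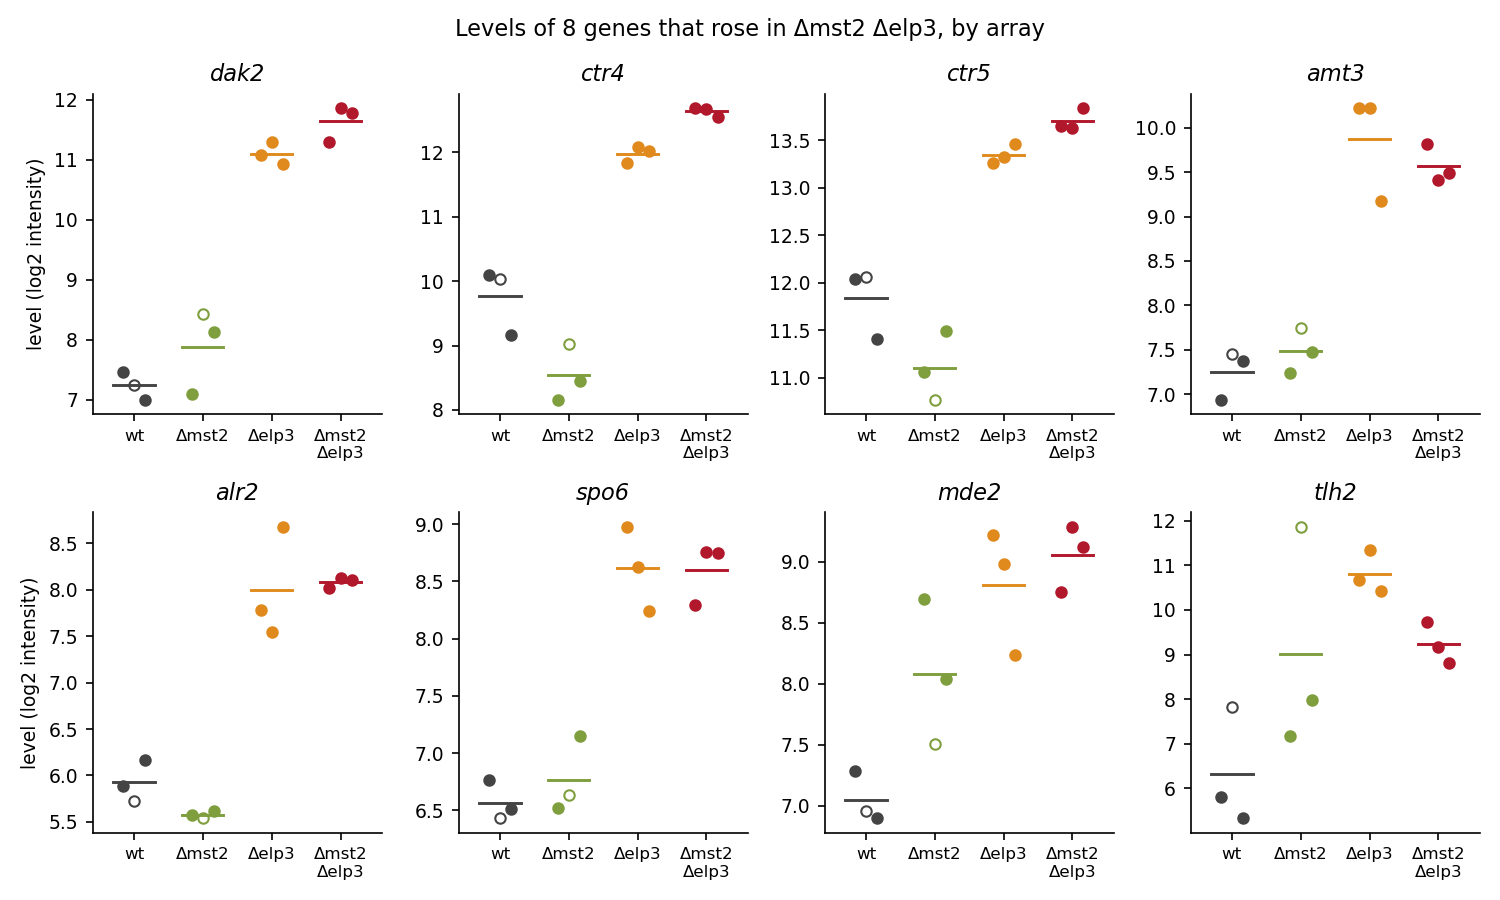
Log2 signal of 8 genes that rose (dak2, ctr4, ctr5, amt3, alr2, spo6, mde2 and tlh2) in the 3 arrays each of wild type, Δmst2, Δelp3 and Δmst2 Δelp3. Points are arrays, bars are group means, and hollow points are the second wild-type and second Δmst2 arrays. In dak2, ctr4 and spo6 the Δelp3 and double mutant points lie far above those of wild type.

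Other genes from meiotic screens were among the called rises, mug131 by 2.19, mug128 by 1.85, mug8 by 1.81 and mpf1, for a Puf-family RNA-binding protein, by 1.78. cnp3, for the centromere protein CENP-C, rose by 1.71 ± 0.46 (adjusted p = 0.0138, and 0.0734 without wild-type replicate 3). The regulators of entry into the sexual cycle did not show this. mei2, for the RNA-binding protein that starts meiosis, was at 7.50, 8.86 and 9.41 in the double mutant and differed from wild type by -1.23 (adjusted p = 0.297), and ste11, for the transcription factor of sexual differentiation, ran from 10.27 to 12.10 within the double mutant. Of 28 pheromone signalling and conjugation genes, 4 rose and 1 fell (14.3% and 3.57%, against 12.7% and 9.19% of all features). Their median was 0.22, and 2 to 6 rose with 1 array left out. cfr1, needed for cell fusion, rose by 1.27 and prm1, for a protein of plasma membrane fusion, by 0.99, and ras1, for the GTPase of pheromone signalling, fell by 0.65. Among genes particular to one mating type, 1 of 5 P-cell genes (map3, for the M-factor receptor, 0.76) and none of 8 M-cell genes rose. mam2, the receptor gene of the other pheromone, differed by 1.83 ± 0.72 (adjusted p = 0.0761).

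tlh2, a RecQ-type helicase gene at the end of the right arm of chromosome II, was at 5.80, 7.83 and 5.33 in wild type and at 9.73, 9.17 and 8.82 in the double mutant. Near-identical copies lie at other chromosome ends, so the gene that its probe set read is uncertain. It rose by 2.92 ± 0.96 (adjusted p = 0.0372), and by 3.68 (adjusted p = 0.0235) without wild-type replicate 2, its highest wild-type array. Without any other 1 of the 6 arrays its adjusted p was above the threshold, up to 0.126. In Δelp3 it was higher still, at 10.68, 11.35 and 10.42.

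Among the named genes that were not deleted, the largest falls were in gal7 and gal1, of galactose use. gal7, for galactose-1-phosphate uridylyltransferase, was at 9.96, 10.10 and 10.16 in wild type and at 6.57, 6.10 and 6.69 in the double mutant. It fell by 3.62 ± 0.54 (12.3-fold, adjusted p = 0.000195). gal1, for galactokinase, was at 11.02, 10.70 and 10.50 in wild type and at 7.38, 7.29 and 7.47 in the double mutant. It fell by 3.36 ± 0.74 (10.3-fold, adjusted p = 0.00442). The groups lay more than 3 log2 units apart in both genes. gal10, for the epimerase of the pathway, was at 8.07, 7.56 and 7.10 in wild type and at 5.76, 5.93 and 6.49 in the double mutant, with no overlap, but its difference of -1.52 ± 1.04 did not pass (adjusted p = 0.312), with the library labelled Δmst2 replicate 2, at 12.33, in the shared spread. Without that library and the one labelled Δgcn5 replicate 2 the same difference had an adjusted p of 0.0234. mel1, for an alpha-galactosidase on another chromosome, fell by 0.87 ± 0.18 (adjusted p = 0.00258).

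The low level of gal7, gal1 and gal10 was found in the double mutant arrays and in no other array of the series. In the other 21 arrays gal7 lay between 9.64 and 12.36, gal1 between 9.86 and 13.77 and gal10 between 7.08 and 12.33. The single array that lacked gcn5, elp3 and mst2 together, with the double mutant's date and labelling, had gal7 at 10.16 and gal1 at 10.02. One probe set with no gene name here, 1777803_at, had the same shape, at 11.19, 10.59 and 10.47 in wild type, at 5.40, 5.46 and 6.02 in the double mutant and between 9.58 and 11.78 in the other 21 arrays. Its difference from wild type was -5.12. The paper lists the same value in this double mutant for a gene whose systematic name comes just before that of gal7. Whether the probe set reads that gene was not tested.

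**Figure D3:**
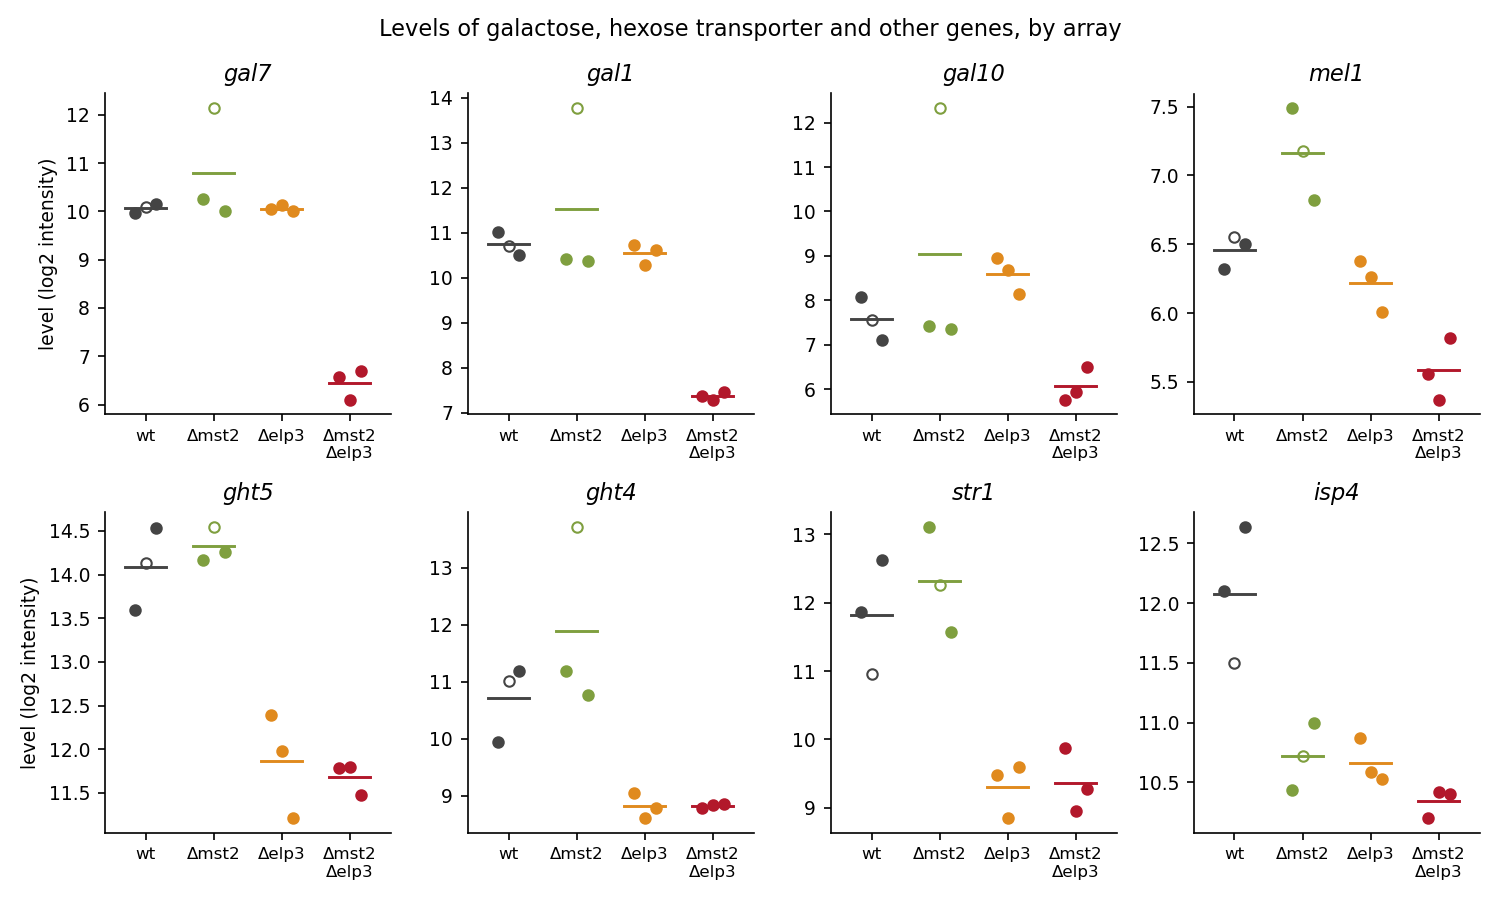
Log2 signal of 8 genes that were lower (gal7, gal1, gal10, mel1, ght5, ght4, str1 and isp4) in the 3 arrays each of wild type, Δmst2, Δelp3 and Δmst2 Δelp3, with points for arrays, bars for group means and hollow points for the second wild-type and second Δmst2 arrays. gal7 and gal1 are low in the double mutant alone, ght5, ght4 and str1 are low in Δelp3 as well, and isp4 is low in all 3 mutants.

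gal7, gal10 and gal1 are neighbours near the right end of chromosome II, at gene order 1851, 1853 and 1854 of 1865. say1, at 1845, was at 8.36, 6.81 and 6.29 in wild type and at 5.43, 5.54 and 5.56 in the double mutant, a difference of -1.64 ± 0.46 (adjusted p = 0.0168, and 0.0966 without wild-type replicate 1) that was under the fold of 3.25. tlh2, the last gene at 1865, moved the other way. Of the 60 genes nearest that end 25 were measured under a gene name, and 1 was called higher and 2 lower. Over the 6 chromosome ends 111 of 360 genes were measured under a gene name. Of these 6 (5.41%) were called, against 26 (0.9%) of the 2890 named genes with a position. The other called genes at ends were dak2, 24th on chromosome I, alr2, 34th on chromosome II, and ght4, 46th there. No 2 neighbours among these named genes were called in the same direction. The 2082 features without a symbol had no position here, so runs that include them could not be seen. The paper lists further genes with gal7's systematic name prefix as lower in this double mutant.

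**Figure D4:**
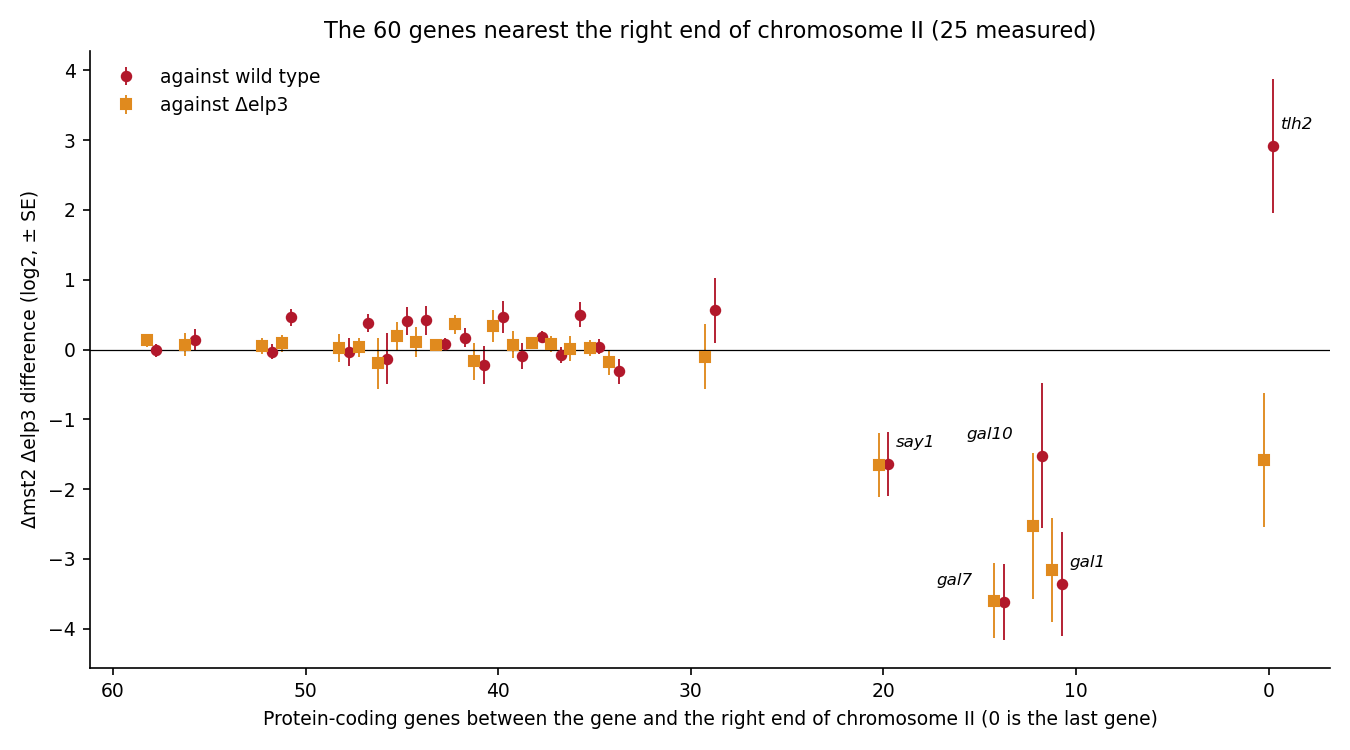
Difference of Δmst2 Δelp3 from wild type (circles) and from Δelp3 (squares), in log2 with SE bars, at the 25 genes measured under a gene name among the 60 nearest the right end of chromosome II, by the number of genes between each and the end. The gal7, gal10, gal1 and say1 points lie below 0 in both comparisons, and tlh2, the last gene, lies above 0 against wild type and below it against Δelp3.

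Of 8 measured hexose transporter genes 3 fell and none rose (37.5% fell, against 9.19% of all features). ght5, for the high-affinity glucose transporter, was at 13.59, 14.13 and 14.53 in wild type and at 11.78, 11.80 and 11.48 in the double mutant. It fell by 2.40 ± 0.26 (5.26-fold, adjusted p = 8.47e-06). ght4, for a related transporter, was at 9.95, 11.01 and 11.19 in wild type and at 8.79, 8.84 and 8.86 in the double mutant. It fell by 1.89 ± 0.64 (adjusted p = 0.0424, kept in 1 of 6 fits without an array and at most 0.125). ght2 fell by 1.06 ± 0.21 (adjusted p = 0.00227). The median of the 8 genes was -0.57. Of 17 genes of glucose repression and alternative carbon use, 2 rose and 5 fell (11.8% and 29.4%, against 12.7% and 9.19% of all features), and the list's median was -0.22. The 5 became 2 without any 1 of the double mutant arrays, and 3 without wild-type replicate 2 or 3. Beside dak2 and dak1 these included cyr1, for adenylate cyclase, which rose by 0.91, and rst2, for an activator of gluconeogenesis genes, which fell by 0.63. inv1, for invertase, differed by -2.13 ± 0.79 and did not pass (adjusted p = 0.0606). Its adjusted p was 0.0351 without the libraries labelled Δmst2 and Δgcn5 replicate 2, and 0.0625 without wild-type replicate 2 as well.

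Smaller changes were found in chromatin genes. Of 11 histone genes 4 fell and none rose (36.4% fell, against 9.19% of all features). They were the H4 genes hhf1 (-0.79, adjusted p = 0.000159) and hhf3 (-0.61, adjusted p = 0.0207, kept in 2 of 6 fits without an array and at most 0.131) and the H2A genes hta2 (-0.43) and hta1 (-0.36). Near-identical copies share these probe sets, so the copies are uncertain. Of 29 silencing factors 8 rose and none fell (27.6% against 12.7%), and the median was 0.20. Leaving out 1 array gave 3 to 7 that rose. The 3 of the 29 came without double mutant replicate 2, a fit in which 327 of all 4981 features rose. Of those named, pot1, set2 and sir2 passed in every such fit, chp1 in 4 of 6, rdp1 in 3 and chp2 in 2. They were pot1, which binds telomere ends (0.98, adjusted p = 0.000221), chp1, of the RNA interference effector complex (0.79), set2, a histone H3 methyltransferase (0.76), chp2, rdp1, sir2, rif1 and tpz1. Of 14 genes of Elongator and wobble uridine modification, elp2 (0.80, adjusted p = 0.00621) and elp6 (0.74, adjusted p = 0.00809), for other Elongator subunits, rose and elp3 fell. These shares, 14.3% and 7.14%, were near the 12.7% and 9.19% of all features. Of 6 genes of the Mst2 complex, mst2 and tfg3, for a subunit shared with TFIIF (-0.37), fell (33.3%, against 9.19%).

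Stress genes were mixed. Of 35, 3 rose and 5 fell (8.57% and 14.3%, against 12.7% and 9.19% of all features, median -0.09). Leaving out 1 array moved the 5 to between 1 (without double mutant replicate 2) and 10 (without wild-type replicate 3). hsp9, for a small stress protein, fell by 1.79 ± 0.49 (adjusted p = 0.0154, and 0.0618 without wild-type replicate 2, 0.063 without wild-type replicate 1 and 0.086 without double mutant replicate 2), srx1, for sulfiredoxin, fell by 1.36 (-0.82 with an adjusted p of 0.159 without wild-type replicate 1) and grx1, for glutaredoxin, fell by 0.87 (-0.57 with an adjusted p of 0.0907 without double mutant replicate 2), while sty1, for the stress-activated kinase, rose by 0.64. The reference genes, 15 of housekeeping function, had a median of -0.06, and 1 of them, ade1 (0.33), rose.

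**Figure D5:**
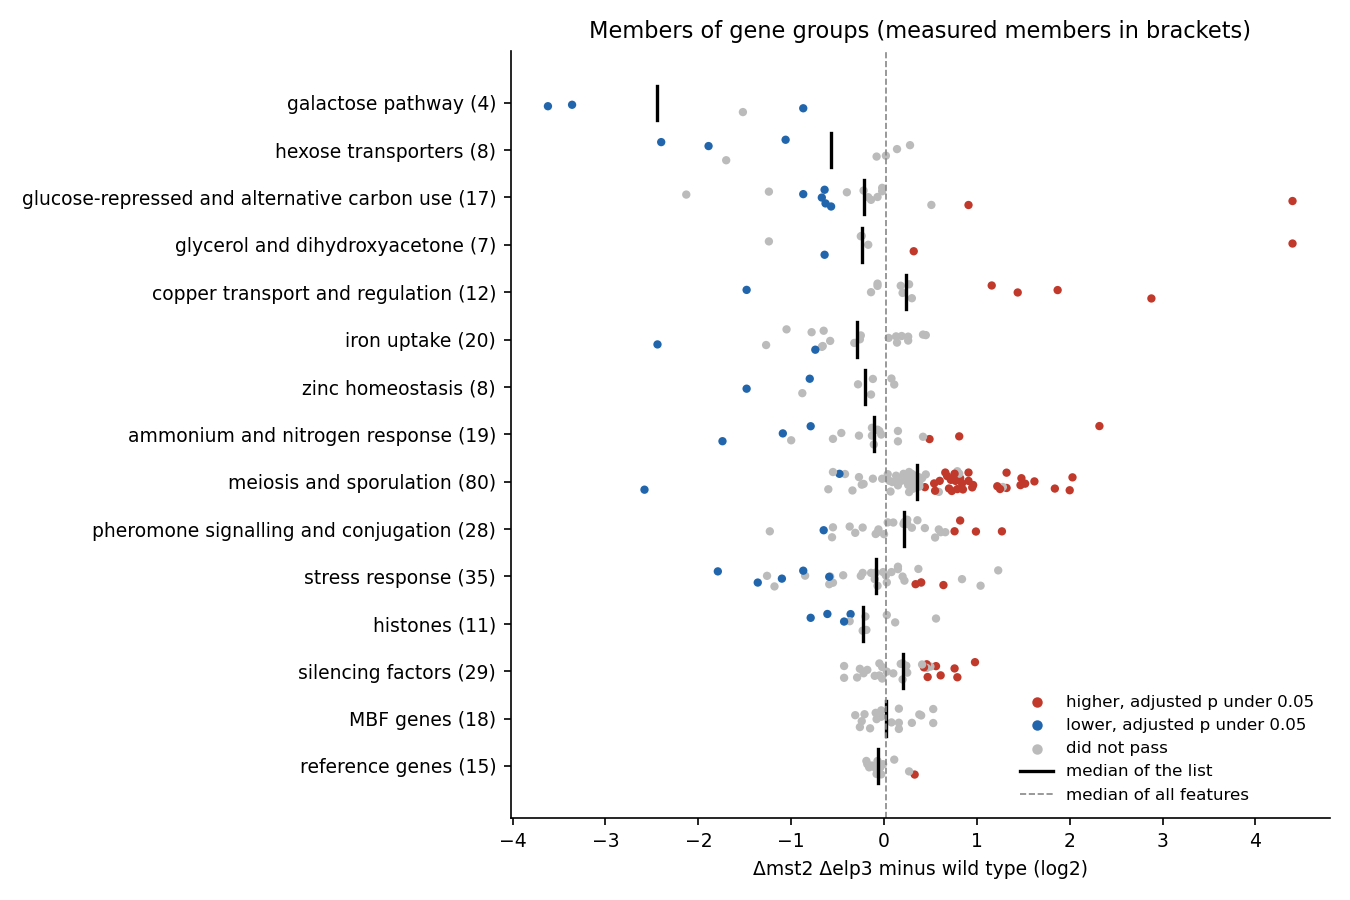
Difference of Δmst2 Δelp3 from wild type (log2) for each measured member of the gene lists, with the median of each list as a bar and members past the adjusted p in colour. The meiosis and sporulation list lies mostly above 0, and the galactose and hexose transporter lists lie mostly below it.

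Leaving out 1 of the 6 arrays at a time, 46 of the 78 named genes that passed against wild type kept an adjusted p under 0.05 in every fit against wild type. Among them were dak2, ctr4, ctr5, amt3, mug131, alr2, spo6, mde2, mfc1, gdh2, mug97, gal7, gal1, ght5, ght2, str1, isp4, mel1, mst2 and elp3. Those that passed in 1 fit of 6 were tlh2, ght4, zym1, dak1, tfg3 and ade1. The libraries labelled Δmst2 and Δgcn5 replicate 2 are in neither group but enter the shared spread. Without them the adjusted p was 0.000294 for tlh2, 0.000812 for ght4 and 0.00573 for zym1. It was 0.00826 for dak1, 0.0226 for tfg3 and 0.0351 for ade1. Double mutant replicate 2 was the array whose loss cost the most calls, since 51 of the 78 then passed. With 3 against 3 arrays a two-sided exact permutation test cannot go below p = 0.10, so these p-values rest on the spread that limma shares across features and groups.

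Against Δelp3, which has the same date and labelling, few features differed. Of 4981, 4 (0.0803%) were called higher and 21 (0.422%) lower, and by the adjusted p alone 8 (0.161%) were higher and 30 (0.602%) lower. The named genes past the fold as well were hsp16, gal7, mst2 and grt1. hsp16, for a small heat shock protein, was at 12.09, 12.28 and 10.85 in Δelp3 and at 13.84, 13.81 and 13.87 in the double mutant, a difference of 2.10 ± 0.48 (adjusted p = 0.0455). grt1 was at 7.78, 7.46 and 7.92 in Δelp3 and at 5.97, 5.88 and 6.09 in the double mutant, a difference of -1.74 ± 0.35 (adjusted p = 0.0154), and it was at 6.15, 5.95 and 6.49 in wild type. The difference of gal7 from Δelp3 was -3.60 ± 0.54 (adjusted p = 0.000697). That of gal1 was -3.16 ± 0.74 (interval -4.72 to -1.60), with an adjusted p of 0.0589, and of 2.09e-05 without the libraries labelled Δmst2 and Δgcn5 replicate 2. Leaving out 1 array of either group at a time, gal7 passed in 6 of 6 fits and grt1 in 3 (adjusted p up to 0.0974). hsp16 and mst2 passed in 0 (adjusted p of 0.0546 to 0.189 and of 0.0626 to 0.131). With all arrays of both groups but without the libraries labelled Δmst2 and Δgcn5 replicate 2, the adjusted p was 2.91e-10 for mst2. It was 0.00629 for hsp16 and 0.00414 for grt1.

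Most features called higher against wild type were within 1 log2 unit of their Δelp3 level. dak2 was at 11.07, 11.30 and 10.92 in Δelp3, and the double mutant differed from it by 0.54, with a 95% interval of -0.11 to 1.20. amt3 differed by -0.30 (interval -0.80 to 0.20), alr2 by 0.08 (-0.33 to 0.49), spo6 by -0.02 (-0.47 to 0.43), tlh2 by -1.58 (-3.60 to 0.44) and ght5, which had fallen against wild type, by -0.17 (-0.71 to 0.37). The largest rise of all was in a probe set with no gene name here, 1775955_at, at 5.32, 5.52 and 5.61 in wild type, at 5.87, 5.82 and 5.56 in Δelp3 and at 8.89, 10.76 and 10.17 in the double mutant. It differed from wild type by 4.46 (adjusted p = 8.44e-08) and from Δelp3 by 4.19 (adjusted p = 1.84e-07). A p that missed the threshold does not show that the strains were alike, and the intervals give the sizes that remain possible. Over the 29 features called higher against wild type the median difference from Δelp3 was 0.22, and 25 were within 1 log2 unit of it. Over the 25 called lower the median was -1.06, and 12 were within 1. Of the 80 meiosis genes 1, meu10 (1.49), was higher than in Δelp3. Both comparisons share the double mutant arrays.

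In the other strains without elp3, with the same date and labelling, the level varied by gene. Of the 29 features called higher, 25 had a Δelp3 mean nearer to the double mutant than to wild type, 18 had such a mean in Δgcn5 Δelp3 (2 arrays) and 15 such a value in the triple mutant array. Of the 25 lower features these counts were 13, 12 and 12. The strains with the wild type's labelling were counted too. For the 29 higher features the counts were 12 in the mst1 mutant, 6 in Δgcn5 Δmst2, 2 in Δmst2 and 1 in Δgcn5. For the 25 lower ones they were 1, 10, 4 and 9. The Δmst2 and Δgcn5 means include the replicate 2 libraries that stood apart. In all 6 arrays of the other strains without elp3, spo6 was between 8.24 and 9.07 and amt3 between 8.89 and 10.22. alr2 was at 8.98 in Δgcn5 Δelp3 and at 5.62 in the triple mutant array. ght5 was at 13.22 and 13.54 and str1 at 9.92 and 13.43 in the same order. The part of labelling in each change was not tested.

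With experiment date as a covariate, estimated from Δgcn5 Δmst2, the one genotype on both dates, 37 features were called (32 higher and 5 lower), of which 18 were among the 54. Only 1 Δgcn5 Δmst2 array carries the later date, so the date effect rests on that array and is imprecise. All Δgcn5 Δmst2 arrays had One-Cycle labelling, so this covariate does not carry the labelling. dak2 (4.76), ctr4 (2.88), amt3 (2.47), alr2 (2.14), spo6 (1.85), ctr5 (2.16) and ght5 (-2.16) passed the adjusted p in that fit. gal7 (-3.90) had an adjusted p of 0.0531 and gal1 (-3.38) of 0.214. Among the lists, 3 meiosis genes and 2 copper genes rose, and no histone or silencing gene passed.

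The interaction asked whether losing both genes differed from the sum of the single losses. It was called in 5 features (0.1%) upward and 12 (0.241%) downward, and by the adjusted p alone in 5 and 14 (0.281%). The named ones were ctr4, gal7 and, by the adjusted p alone, mel1. ctr4 was at 8.16, 9.02 and 8.45 in Δmst2, below wild type, and at 11.83, 12.09 and 12.02 in Δelp3. The level in the double mutant was 1.88 ± 0.37 above the sum of the single changes (adjusted p = 0.0236). gal7 was at 10.25, 12.14 and 10.00 in Δmst2 and at 10.04, 10.13 and 10.00 in Δelp3, and its interaction was -4.33 ± 0.76 (adjusted p = 0.00684). mel1 was at 7.49, 7.18 and 6.82 in Δmst2, at 6.38, 6.26 and 6.01 in Δelp3 and at 5.56, 5.37 and 5.82 in the double mutant, with an interaction of -1.34 ± 0.25 (adjusted p = 0.0146). ctr5, the partner of ctr4, had an interaction of 1.09 ± 0.29 that did not pass (adjusted p = 0.245). Over the 12 fits that left out 1 array, gal7 passed in 12, mel1 in 9 (adjusted p up to 0.069, without double mutant replicate 2) and ctr4 in 4 (adjusted p up to 0.0986, without Δmst2 replicate 1, and 0.0984 without wild-type replicate 2). Without the libraries labelled Δmst2 and Δgcn5 replicate 2 the interaction was -3.65 for gal7 (adjusted p = 0.00123), -1.33 for mel1 (0.029) and 2.12 for ctr4 (0.0075). In a fit of these 4 groups alone the adjusted p was 0.00867 for gal7 and 0.0728 for both others.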

How the data were processed

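RNA was prepared from the yeast by hot phenol extraction and hybridised to Affymetrix Yeast Genome 2.0 arrays. The authors deposited log2 values normalized by RMA over the arrays, and their processing notes name RMA and limma, with versions not given in the sources used here. Of 5028 probe sets, 29 controls and 18 lower duplicates of a gene were left out, which left 4981 features, 2899 with a symbol from the platform annotation. One limma model (R 4.3.3, limma 3.58.1) with a mean for each of 9 groups was fitted to all 24 arrays, without a replicate term, and 3 contrasts were tested, with Benjamini-Hochberg adjustment over all features. A call needed an adjusted p under 0.05 and a 3.25-fold difference, reading the methods' threshold as a fold. List members were said to rise or fall by the adjusted p alone. The named genes were the 15 largest called rises and the called falls, called genes of the other contrasts, and list members that passed. Genes chosen after their values were seen were gal10, say1, inv1, mei2, ste11, mam2, cnp3 and the probe sets 1777803_at and 1775955_at. The genes, lists and comparisons were chosen with earlier results of these data known. Replicate numbers did not pair the arrays (correlations of same-numbered deviations from -0.26 to 0.21 with wild type and Δelp3). Replicates may share technical sources, so the p-values cover only the spread between these arrays. The fit was tested on simulated data. The number of arrays limits the precision. No sequences were used here.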

Additional observations from a re-analysis of the deposited data

Results flagged for a closer look

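The effect of losing mst2 differed between cells with and without elp3, by limma's test of the interaction, in 3 named genes and in 2 probe sets that led those with no gene name here. For ctr4 the interaction was 1.88 ± 0.37 (log2, SE, adjusted p = 0.0236). Loss of mst2 went with a difference of -1.22 where elp3 was present and of 0.66 where it was absent. For gal7 it was -4.33 ± 0.76 (adjusted p = 0.00684), from differences of 0.73 and -3.60. The 0.73 includes the library labelled Δmst2 replicate 2, which stood apart and had gal7 at 12.14. In the other Δmst2 arrays gal7 was at 10.25 and 10.00, against a wild-type mean of 10.07. For mel1 the interaction was -1.34 ± 0.25 (adjusted p = 0.0146), from differences of 0.71 and -0.63. Without the libraries labelled Δmst2 and Δgcn5 replicate 2 the values were 2.12, -3.65 and -1.33.

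The probe set 1777803_at had an interaction of -5.84 ± 0.36 (adjusted p = 9.5e-09), with group means of 10.75 in wild type, 11.15 in Δmst2, 11.06 in Δelp3 and 5.62 in the double mutant. Without the libraries labelled Δmst2 and Δgcn5 replicate 2 and wild-type replicate 2 it was -6.03 (adjusted p = 4.6e-08). The probe set 1772987_at had one of 8.89 ± 0.69 (adjusted p = 1.95e-07). It was at 11.33, 8.77 and 10.92 in wild type, at 7.47, 5.60 and 6.63 in Δmst2, at 5.91, 6.06 and 6.13 in Δelp3 and at 11.20, 11.39 and 10.86 in the double mutant, so each single mutant was low and the double mutant was near the wild-type level. Without the same 3 libraries its interaction was 9.19 (adjusted p = 1.53e-10).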

How the results depend on the processing

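The difference of one named gene, rdp1, lost its direction, from 0.56 to 0.00 with the date covariate (adjusted p = 0.995). The 54 features called against wild type became 19 when features under the lower quartile of mean level were left out. Of the 29 called higher, 22 were among those left out. The 54 became 405 at a fold of 1.7, 1089 with no fold threshold and 12 with the threshold read on the log2 scale. Counts on the log2 scale, here and below, used an unadjusted p under 0.05. The 25 called against Δelp3 became 1, 38 and 13 under the filter, without a fold threshold and on the log2 scale. The 17 of the interaction became 1 under the filter, 31 with unadjusted p and 32 with array weights, whose fit did not fully converge. The 78 named genes became 13 with date and 45 under the filter. The 100 list members became 13 with date, 199 with array weights and 51 under the filter. Leaving out 1 array gave 43 to 60 features against wild type, 18 to 26 against Δelp3, 14 to 21 for the interaction, 51 to 68 named genes and 62 to 89 list members. The balance of 29 higher and 25 lower features was 20 and 26 with quantile normalization again, 34 and 37 with array weights, 7 and 12 under the filter, 3 and 9 on the log2 scale, 29 and 31 without wild-type replicate 3 and 24 and 26 without double mutant replicate 3. With the replicate block the calls were 52, 24 and 18 for the 3 contrasts, all but 1 of the 18 among those without it. Without the libraries labelled Δgcn5 and Δmst2 replicate 2 there were 57 calls against wild type, with all 54 among them, and without wild-type replicate 2 as well there were 59, with 50 of the 54.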

Other observations

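Several genes of the sexual cycle were among those with the widest range within the double mutant. mug14, from a meiotic screen, was at 7.49, 8.91 and 9.49 in the 3 double mutant arrays, mei2 at 7.50, 8.86 and 9.41 and ste11 at 10.27, 11.86 and 12.10. In each the first array was the lowest. Other genes with a wide range, cox8, lsm6, ned8, cox17, mrpl39 and tom6, were lowest in the second array instead. cox8 was at 11.81, 10.12 and 11.68 and lsm6 at 12.16, 10.48 and 11.86. In Δelp3, mei2 was between 7.49 and 7.61 and ste11 between 10.28 and 10.31, and map1, for a factor of P-cell gene expression, was at 6.45, 7.75 and 8.00 in the double mutant. Over all features the double mutant arrays were close, with a median SD of 0.12 and 4 features over 1, against 0.18 and 59 in wild type.

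Cell surface and repeat genes were measured in small numbers. Of 7 flocculation and surface genes 3 rose against wild type (42.9%, against 12.7% of all features), with a median of 0.50. They were mbx2, for a regulator of flocculation (0.96), lkh1, for a kinase of that pathway (0.83), and cbf11, for a CSL-family transcription factor (0.69). Of 16 wtf genes, a family of meiotic drivers with similar members that one probe set may share, wtf7 (0.64) and wtf11 (0.60) rose, which is 12.5% against 12.7% of all features, and wtf7 passed in 3 of 6 fits without an array. Of 18 genes of the MBF programme of DNA replication none passed, and their median was 0.02. Among 20 other auxotrophy pathway genes his4 (0.66), ade7 (0.40) and ade1 (0.33) rose, which is 15% against 12.7% of all features. ade1 passed in 1 of 6 fits without an array.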
